A study of Mus musculus with 16 samples.

Results

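The cholesterol synthesis and SREBP2 pathway is described here through 28 genes chosen by symbol from the deposited count table, out of 27179 genes in all. They comprise 20 enzymes that lead from acetyl-CoA to cholesterol or to longer isoprenoids, 5 regulators of the SREBP transcription factors, and 1 gene each for sterol transfer inside the cell (Stard4), for limiting lipoprotein uptake (Mylip) and for sterol export (Abca1). The list does not hold every enzyme of the route. It was chosen with earlier results of these data known, so its shares beside those of all tested genes are descriptive only. All 28 had enough counts to be tested, in a set of 14288 tested genes. The RNA came from mouse embryonic stem (ES) cells, in 16 libraries that form 8 groups of 2: 2 maintenance media and 4 times after release from naive pluripotency, the early epiblast state that culture can hold. The first medium, 2i/LIF, was serum-free with N-2 and B-27 supplements. The second, serum/LIF+2i, contained 10% fetal bovine serum and is called the serum medium below. Both contained leukaemia inhibitory factor (LIF) and 2i, which is 3 µM of the GSK3 inhibitor CHIR99021 with 1 µM of the MEK inhibitor PD0325901. Glutamine was at 2 mM in all groups. Cells at 0 h were collected in these media, and the other groups 12, 24 or 40 h after 2i and LIF had been withdrawn by a change to serum-free medium. For cells from the serum medium the treatment protocol names only 24 and 40 h. The 12 h values of the serum medium therefore rest on the sample titles alone. Release therefore also removed the serum from the cells kept in the serum medium, which then received a base medium made with another DMEM than the cells from 2i/LIF. All cells had been grown on gelatin, had been moved from serum with LIF over 3 passages and were used for up to 9 passages. The labels name no cell line, no genotype and no number of clones. They do not say whether replicates were separate cultures, so the p-values measure only the spread between these libraries, which may be technical.

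Cholesterol is built from acetyl-CoA by way of mevalonate, short isoprenoids, squalene and lanosterol, and is needed by every dividing animal cell for its membranes. When sterols in the endoplasmic reticulum are scarce, the escort protein SCAP carries the SREBP precursors to the Golgi, where proteases free the part that enters the nucleus and switches on the genes of synthesis and of lipoprotein uptake. When sterols are plentiful, INSIG proteins hold SCAP back, and the LXR receptors, which sense oxidised sterols, switch on export genes such as Abca1 and the uptake limiter Mylip.

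Promoter sequence is shown for 4 members on which the results turn: Hmgcs1, the most abundant enzyme; Insig1, itself a classic SREBP target; Lss, whose level rose most; and Ebp, which fell while most of the route rose. Each line gives the 250 bases just before the annotated start of transcription, 5′ to 3′ on the gene's strand, from RefSeq's table for GRCm38.p6. They lie at chr13:119690101-119690350 (plus strand), chr5:28071162-28071411 (plus strand), chr10:76531355-76531604 (plus strand) and chrX:8193513-8193762 (minus strand). For Lss the start used lies downstream of the gene's first annotated base, chr10:76531565. The end of the Lss window is therefore inside the gene, and its positions count from that later start. Capitals mark matches, on either strand, to the sterol regulatory element core CACNCCAC, the NF-Y box CCAAT and the GC box GGGCGG, the box bound by Sp1. SREBP is known to act together with NF-Y and Sp1.
Hmgcs1: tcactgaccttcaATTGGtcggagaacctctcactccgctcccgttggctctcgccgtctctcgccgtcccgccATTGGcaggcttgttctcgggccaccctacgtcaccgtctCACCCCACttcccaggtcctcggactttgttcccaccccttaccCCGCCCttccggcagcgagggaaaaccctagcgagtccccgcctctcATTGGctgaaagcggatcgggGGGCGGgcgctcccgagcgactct
Insig1: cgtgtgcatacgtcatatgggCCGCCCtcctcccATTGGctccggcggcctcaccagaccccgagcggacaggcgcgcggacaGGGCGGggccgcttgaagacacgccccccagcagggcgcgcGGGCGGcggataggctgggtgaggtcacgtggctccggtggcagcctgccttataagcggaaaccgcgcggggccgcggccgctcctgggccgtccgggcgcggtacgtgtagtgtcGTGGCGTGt
Lss: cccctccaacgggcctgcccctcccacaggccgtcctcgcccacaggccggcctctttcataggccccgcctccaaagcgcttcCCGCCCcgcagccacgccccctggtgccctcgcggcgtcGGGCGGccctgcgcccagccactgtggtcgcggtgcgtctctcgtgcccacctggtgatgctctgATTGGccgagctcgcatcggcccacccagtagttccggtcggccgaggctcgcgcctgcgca
Ebp: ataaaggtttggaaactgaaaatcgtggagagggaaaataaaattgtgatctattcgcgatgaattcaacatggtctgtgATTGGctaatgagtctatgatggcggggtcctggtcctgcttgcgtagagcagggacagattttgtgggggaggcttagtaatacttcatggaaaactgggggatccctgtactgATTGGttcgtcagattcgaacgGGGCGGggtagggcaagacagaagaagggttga
The sterol element core lies at -136 to -129 from the start in Hmgcs1 and, on the opposite strand, at -9 to -2 in Insig1. Neither Lss nor Ebp has these letters in the window. An inverted NF-Y box (ATTGG) lies at -62 to -58 in Lss and at -55 to -51 in Ebp, and also at -45 to -41 in Hmgcs1.

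Of the 28 members, 24 had an entry in that table, with 32 promoters of 300 bases (250 before and 50 after the start). Fdps, Sqle, Fdft1 and Stard4 are without one here. An NF-Y box was found for 21 of the 24 genes (87.5%), against 41.06% of all 27025 genes in the table and 43.26% of the tested genes that have an entry. A GC box was found for 22 of 24 (91.67%), against 38.2% and 68.34%. The sterol element core was found for 3 of 24 (12.5%), namely Hmgcs1, Insig1 and Acat2, against 7.12% and 7.67%. No motif overlapped another by its letters. These are matches of letters in 1 window per start, counted with no test.

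Library totals ran from 5931381 to 11142744 counts, and replicates had log2 levels that correlated across genes at 0.9905 to 0.9948 (Pearson's r). Levels are in CPM, counts scaled to a common library total, and 3 counts equal 0.258 to 0.517 CPM. The lowest member count was 38 (Mylip) and the highest 10184 (Hmgcs1). The ES cell markers Pou5f1, Sox2, Nanog, Zfp42, Esrrb and Utf1 summed to 2894 and 2975 CPM at 0 h in 2i/LIF and to 3329 and 3271 CPM in the serum medium. At 40 h they summed to 1308 and 1272 CPM and to 1285 and 1237 CPM, with 4 of 6 lower and 1 higher by the test in each medium. The sum hides opposite moves, since the higher one was Utf1. In 2i/LIF Utf1 went from 20.5 and 19.4 CPM at 0 h to 415 and 385 CPM at 40 h. Esrrb, one of the 4, went from 912 and 919 CPM to 39.6 and 35.2 CPM there. The 6 fibroblast markers summed to 3.62 and 4.10 CPM at 0 h in 2i/LIF and 2.65 and 2.50 CPM in the serum medium. At 40 h their sums were 22.3 and 15.2 CPM in 2i/LIF and 11.7 and 10.4 CPM in the serum medium, mostly Dcn and Thy1. Postn was at 0 in every library, and Col3a1 was at 0.541 CPM or less. The 6 primitive endoderm markers summed to 6.23 to 6.90 CPM at 0 h and to 10.5 to 16.2 CPM at 40 h, mostly Dab2. The part of these cells in the results below was not tested. In bulk RNA, fewer cells of a type and less RNA per cell cannot be told apart.

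Most of the synthesis enzymes were higher after release in both media, and the change was under way by 12 h. Summed over the 20 enzymes, the level was 2544 and 2521 CPM at 0 h in 2i/LIF and 4006 and 3948 CPM at 40 h. In the serum medium the sums were 1751 and 1876 CPM at 0 h and 3642 and 3680 CPM at 40 h. Both libraries at 40 h thus lay above both at 0 h in each medium, and the serum-medium libraries started and ended below those of 2i/LIF. By edgeR's quasi-likelihood test, with Benjamini-Hochberg adjustment over all tested genes and calls at an adjusted p under 0.05, 20 members rose and 6 fell from 0 to 40 h in 2i/LIF. The background in that comparison was 34.1% of tested genes higher and 34.7% lower (68.8% in all). In the serum medium, 23 members rose and 3 fell, against 35.3% and 35.3% of tested genes (70.5% in all). The median log2 fold change of the 20 enzymes was 0.63 in 2i/LIF and 0.90 in the serum medium, and that of all tested genes 0.0052 and -0.0032. So many genes were called by 40 h that being called sets a member apart little. The enzymes were called mostly in 1 direction, with 16 higher and 2 lower in 2i/LIF and 19 higher and 1 lower in the serum medium.

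**Figure D1:**
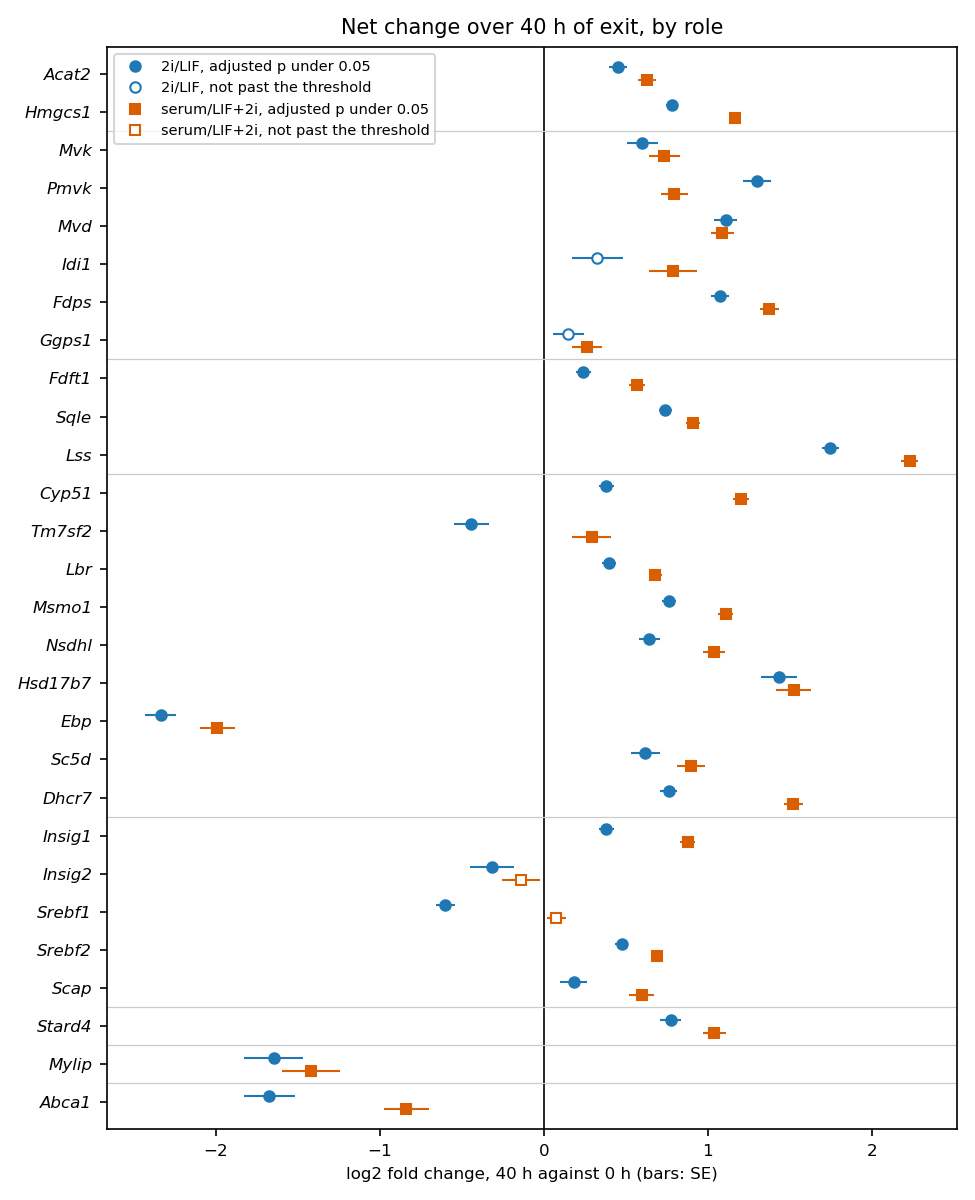
Log2 fold change from 0 to 40 h for the 28 members in order of role, in 2i/LIF and in the serum medium. Bars are standard errors, filled points have an adjusted p under 0.05 and open points do not. Lss lies farthest right in both media (1.75 and 2.23), and Ebp (-2.33 and -1.99), Mylip and Abca1 lie left of 0 in both.

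At 12 h, 17 members were higher and 7 lower than at 0 h in 2i/LIF, against 21% and 23.7% of tested genes, 44.7% in all. Of the enzymes, 15 were higher and 3 lower (Ggps1, Tm7sf2 and Ebp), with a median of 0.48. Without 2i/LIF replicate 2 at 12 h the calls of Ggps1 (-0.26, then -0.13) and Tm7sf2 (-0.38, then -0.22) were lost. The Ggps1 call was also lost without replicate 1 at 0 h (-0.21) and under DESeq2 (adjusted p = 0.112), though its value was -0.40 without replicate 1 at 12 h, and that of Tm7sf2 without replicate 2 at 0 h (-0.32). In the serum medium 21 members were higher and 3 lower at 12 h, against 25.3% and 25.9%, 51.2% in all, and 17 enzymes were higher and 0 lower, with a median of 0.71. At 24 h the members numbered 19 higher and 6 lower in 2i/LIF (background 29.2% and 29.6%, 58.8% in all), with an enzyme median of 0.60. In the serum medium they numbered 21 higher and 2 lower (background 32.4% and 32%, 64.4% in all), with an enzyme median of 0.77. The 3 later times of a medium share its 0 h libraries and are not independent of each other. The group with the lowest mean was the serum medium at 0 h for 20 of 28 members and 16 of 20 enzymes. The group with the highest mean was 2i/LIF at 40 h for 14 members and 11 enzymes.

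Per kilobase of the gene length in the table, the enzymes spanned a wide range of levels in 2i/LIF at 0 h. Hmgcs1 was highest at 154 CPM per kb, followed by Msmo1 at 117 and Lbr at 87.2. Idi1 at 4.65 and Hsd17b7 at 4.13 were lowest. By 40 h, Lss stood at 97.7 CPM per kb in 2i/LIF and 88.8 in the serum medium, and Ebp at 10.6 and 6.44.

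The route starts with Acat2, which joins acetyl-CoA units, and Hmgcs1, which makes HMG-CoA. Hmgcs1 (Entrez 208715) in 2i/LIF was at 510.3 and 502 CPM at 0 h, 711 and 719 at 12 h, 813 and 776 at 24 h and 859 and 880.2 at 40 h. Hmgcs1 in the serum medium was at 377 and 403 CPM at 0 h, 684 and 675 at 12 h, 646 and 659.9 at 24 h and 878 and 873 at 40 h. In each medium all later libraries lay above both 0 h libraries, and at 40 h the media overlapped. The log2 fold change over 40 h was 0.78 ± 0.04 (SE) in 2i/LIF and 1.17 ± 0.04 in the serum medium, with edgeR adjusted p of 3.51e-41 and 5.46e-58. Acat2 (Entrez 110460) in 2i/LIF was at 137 and 134 CPM at 0 h, 157 and 159 at 12 h, 179 and 176 at 24 h and 191 and 179.9 at 40 h. Acat2 in the serum medium was at 92.7 and 107 CPM at 0 h, 139 and 135 at 12 h, 137 and 138 at 24 h and 149 and 160.2 at 40 h. It rose by 0.45 ± 0.05 and 0.63 ± 0.05, and its 40 h libraries lay above its 0 h libraries in both media. Of its 50-base stretches, 39.06% are also found in Acat3, so Acat2 counts are uncertain. An antisense gene covers 16% of the exon bases of Hmgcs1, and no source used here states whether counting used the strand.

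Mevalonate is then phosphorylated by Mvk and Pmvk, decarboxylated by Mvd, isomerised by Idi1 and joined into farnesyl diphosphate by Fdps, while Ggps1 makes the longer geranylgeranyl diphosphate used to anchor proteins. Of these 6, 4 rose over 40 h in 2i/LIF and 6 in the serum medium, and 0 fell in either. Fdps (Entrez 110196) in 2i/LIF was at 87.03 and 96.3 CPM at 0 h, 121 and 122 at 12 h, 158 and 145 at 24 h and 197 and 190.0 at 40 h. Fdps in the serum medium was at 60.97 and 66.2 CPM at 0 h, 96.9 and 99.8 at 12 h, 131 and 127 at 24 h and 164 and 166 at 40 h. No later library overlapped the 0 h libraries in either medium. Fdps rose by 1.07 ± 0.06 in 2i/LIF (adjusted p = 1.97e-36) and by 1.38 ± 0.06 in the serum medium (adjusted p = 7.18e-45), by edgeR's test. The GENCODE annotation of GRCm38 places Gm43738 over 77.36% of its exon bases on the same strand, so its counts are uncertain.

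Pmvk (Entrez 68603) in 2i/LIF was at 31.5 and 33.7 CPM at 0 h, 42.8 and 50.1 at 12 h, 54.3 and 63.8 at 24 h and 82.7 and 78.3 at 40 h. Pmvk in the serum medium was at 40.4 and 36.3 CPM at 0 h, 51.6 and 53.5 at 12 h, 52.9 and 56.04 at 24 h and 66.96 and 66.2 at 40 h. It is the only enzyme whose mean at 0 h was higher in the serum medium, by 0.23 ± 0.10, which did not pass the test (adjusted p = 0.0743, edgeR), and it rose more in 2i/LIF (1.30 ± 0.09) than in the serum medium (0.80 ± 0.08). Mvd (Entrez 192156) in 2i/LIF was at 51.9 and 57.6 CPM at 0 h, 81.5 and 86.5 at 12 h, 87.3 and 95.6 at 24 h and 123 and 113 at 40 h. Mvd in the serum medium was at 48.3 and 48.3 CPM at 0 h, 75.1 and 79.3 at 12 h, 90.1 and 90.8 at 24 h and 107 and 97.9 at 40 h. Mvd rose by 1.11 ± 0.07 and 1.09 ± 0.07, with all 40 h libraries above all 0 h libraries. Mvk (Entrez 17855) in 2i/LIF was at 38.8 and 33.7 CPM at 0 h, 63.5 and 56.8 at 12 h, 54.4 and 56.8 at 24 h and 58.7 and 50.5 at 40 h. Mvk in the serum medium was at 27.8 and 29.96 CPM at 0 h, 57.4 and 49.4 at 12 h, 48.00 and 51.8 at 24 h and 46.7 and 49.5 at 40 h. Mvk was already at its highest mean by 12 h in both media, and its 40 h values exceeded 0 h by 0.60 ± 0.09 and 0.74 ± 0.09. Idi1 ranged from 9.40 to 25.8 CPM over the libraries and passed the test at 40 h in the serum medium (0.79 ± 0.15) but not in 2i/LIF (0.33 ± 0.16, adjusted p = 0.0572, edgeR). In 2i/LIF Idi1 was higher at 24 h (0.82 ± 0.15) and fell by 0.49 ± 0.14 from 24 to 40 h, a call lost without replicate 2 at 24 h (-0.36) or at 40 h (-0.38). Ggps1 ranged from 29.1 to 44.3 CPM, was at 0.15 ± 0.10 over 40 h in 2i/LIF without passing the test, and rose by 0.26 ± 0.09 in the serum medium. Of the 50-base stretches of Idi1, 17.67% are also found in Gm13502, so its counts are uncertain. The Ggps1 call was lost without serum-medium replicate 1 at 0 h or replicate 2 at 40 h (0.20 in both).

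Fdft1 joins a pair of farnesyl units into squalene, Sqle adds an oxygen and is a rate-limiting step of the route, and Lss closes the rings to form lanosterol. All 3 rose over 40 h in both media. Lss (Entrez 16987) in 2i/LIF was at 87.2 and 93.3 CPM at 0 h, 158 and 161 at 12 h, 232 and 232 at 24 h and 302 and 305 at 40 h. Lss in the serum medium was at 58.04 and 59.3 CPM at 0 h, 150.2 and 147 at 12 h, 205 and 216 at 24 h and 272 and 279 at 40 h. The libraries of each time lay wholly above those of the time before, in both media. The log2 fold change over 40 h was 1.75 ± 0.05 in 2i/LIF (3.35-fold, adjusted p = 3.62e-61) and 2.23 ± 0.05 in the serum medium (4.69-fold, adjusted p = 2.13e-70), by edgeR's test, the largest rise among the 28 members in each medium. An antisense gene covers 8.16% of the exon bases of Lss. Every step between neighbouring times passed the test as well, with 0.54 and 0.39 from 12 to 24 h and from 24 to 40 h in 2i/LIF and 0.50 and 0.39 in the serum medium.

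Sqle (Entrez 20775) in 2i/LIF was at 212 and 212 CPM at 0 h, 315 and 321 at 12 h, 364 and 352 at 24 h and 368 and 340.2 at 40 h. Sqle in the serum medium was at 177 and 181 CPM at 0 h, 277 and 286 at 12 h, 310.0 and 311 at 24 h and 334 and 339 at 40 h. Its 0 h libraries lay below all later ones in both media, and it rose by 0.74 ± 0.04 and 0.91 ± 0.04 over 40 h. Fdft1 (Entrez 14137) in 2i/LIF was at 218 and 224 CPM at 0 h, 303 and 289 at 12 h, 306 and 319.9 at 24 h and 267 and 256 at 40 h. Fdft1 in the serum medium was at 149 and 162 CPM at 0 h, 276 and 258 at 12 h, 229 and 244 at 24 h and 225 and 237 at 40 h. It was highest at 24 h in 2i/LIF and at 12 h in the serum medium, and fell by 0.26 ± 0.04 from 24 to 40 h in 2i/LIF and by 0.17 ± 0.04 from 12 to 24 h in the serum medium. At 40 h it was still above 0 h, by 0.24 ± 0.05 and 0.57 ± 0.05. Ctsb overlaps 20.93% of the exon bases of Fdft1 on the opposite strand, so the Fdft1 counts are uncertain.

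**Figure D2:**
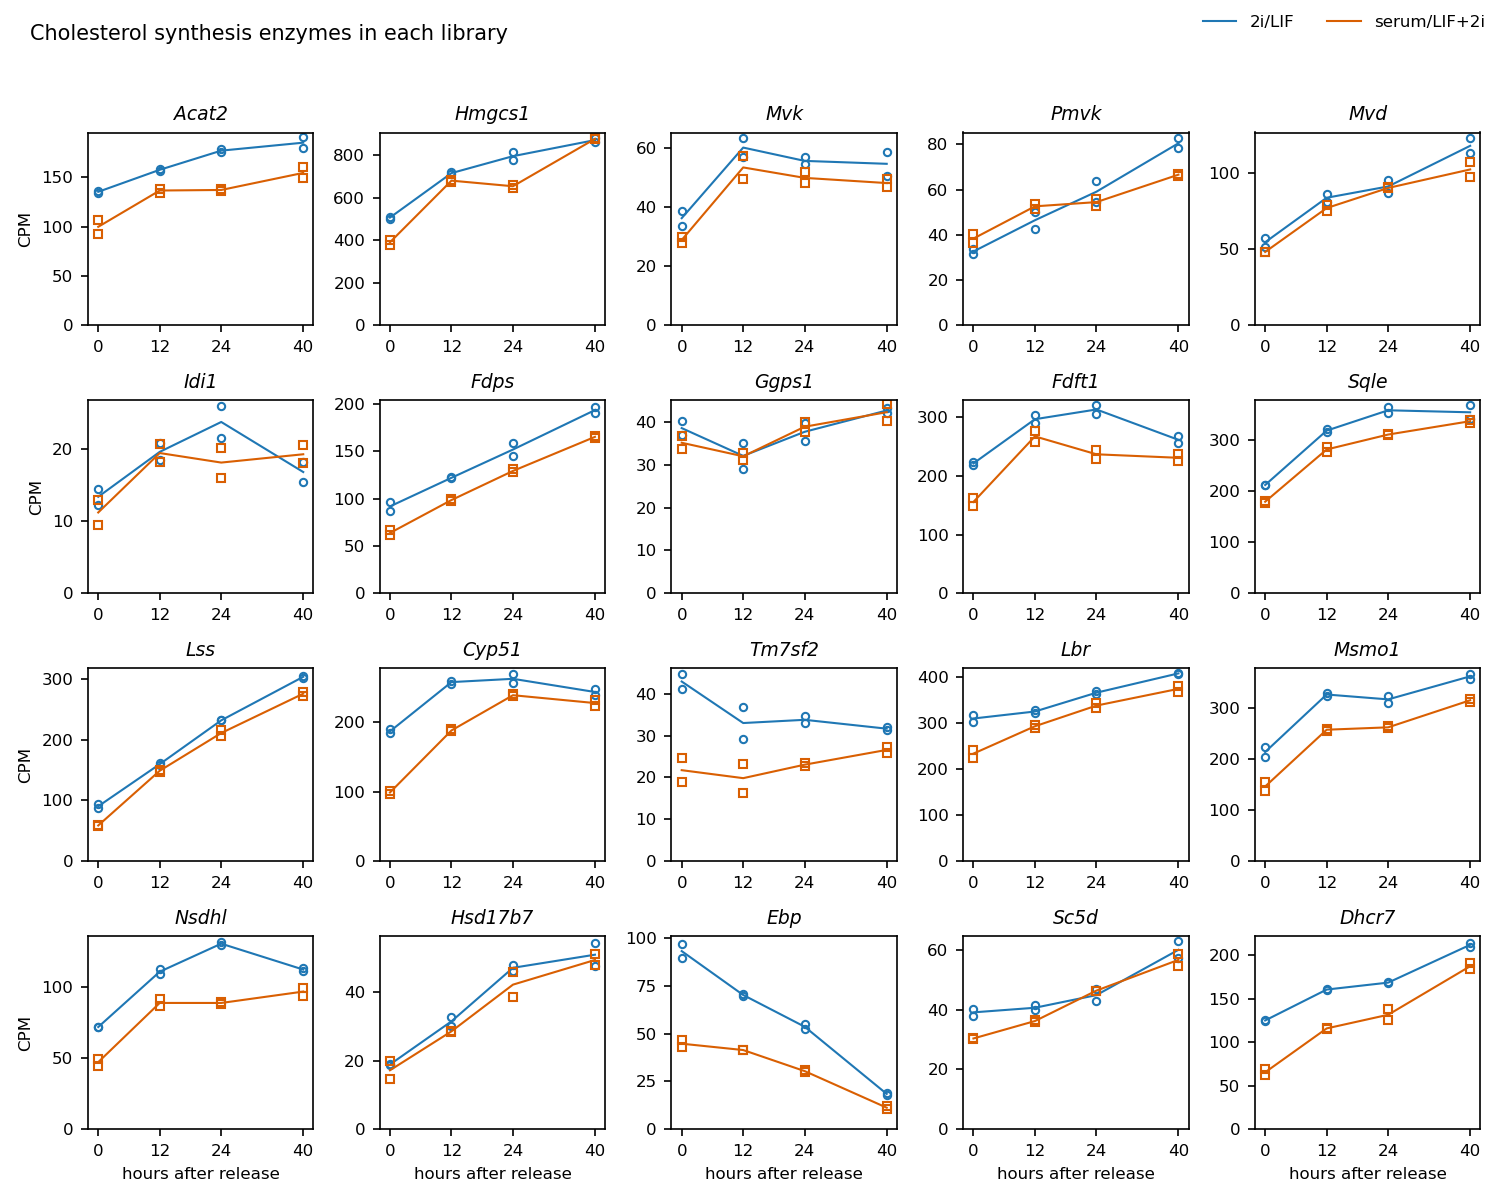
CPM of the synthesis enzymes against hours after release, with 1 panel per gene and every vertical axis starting at 0. Points are single libraries, and lines join the group means of 2i/LIF and of the serum medium. Lss climbs at every time in both media, Mvk is at its highest mean at 12 h, and Ebp falls to 12.2 and 10.3 CPM at 40 h in the serum medium.

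Lanosterol becomes cholesterol through the removal of methyl groups (Cyp51, Msmo1, Nsdhl, Hsd17b7), the reduction of double bonds (Tm7sf2, Lbr, Dhcr7) and a shift and insertion of double bonds (Ebp, Sc5d). Of these 9, 7 rose and 2 fell over 40 h in 2i/LIF, and 8 rose and 1 fell in the serum medium. The exception in both media was Ebp, the sterol isomerase that moves a double bond within the ring. Ebp (Entrez 13595) in 2i/LIF was at 96.7 and 89.8 CPM at 0 h, 69.5 and 70.99 at 12 h, 52.2 and 55.01 at 24 h and 19.04 and 17.8 at 40 h. Ebp in the serum medium was at 42.9 and 46.6 CPM at 0 h, 41.5 and 41.3 at 12 h, 29.6 and 31.1 at 24 h and 12.2 and 10.3 at 40 h. In both media the libraries of each time lay wholly below those of the time before, though in the serum medium the step from 0 to 12 h was small (-0.11 ± 0.09) and did not pass the test. Ebp fell by 2.33 ± 0.09 (log2) in 2i/LIF (adjusted p = 1.61e-47) and by 1.99 ± 0.11 in the serum medium (adjusted p = 3.41e-35), by edgeR's test. Most of the fall came between 24 and 40 h, where Ebp fell by 1.54 ± 0.10 and 1.43 ± 0.11. No other annotated gene overlaps its exons.

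Dhcr7 (Entrez 13360), which completes cholesterol from 7-dehydrocholesterol, was in 2i/LIF at 125 and 125 CPM at 0 h, 161 and 160.2 at 12 h, 167 and 169 at 24 h and 209.7 and 214 at 40 h. Dhcr7 in the serum medium was at 62.00 and 68.6 CPM at 0 h, 117 and 115 at 12 h, 125 and 138 at 24 h and 190.5 and 184 at 40 h. Every later library was above both 0 h libraries of its medium. The rise over 40 h was 0.76 ± 0.05 in 2i/LIF and 1.52 ± 0.06 in the serum medium, with edgeR adjusted p of 3.79e-27 and 1.73e-50. Hsd17b7 (Entrez 15490), a ketone reductase of the demethylation steps, was in 2i/LIF at 18.6 and 19.1 CPM at 0 h, 32.8 and 30.2 at 12 h, 46.2 and 48.02 at 24 h and 54.4 and 47.6 at 40 h. Hsd17b7 in the serum medium was at 14.5 and 19.8 CPM at 0 h, 28.4 and 28.7 at 12 h, 45.8 and 38.6 at 24 h and 51.02 and 47.8 at 40 h. It rose by 1.43 ± 0.11 and 1.52 ± 0.11 over 40 h, and in 2i/LIF only Lss had a larger rise among the members. Nsdhl (Entrez 18194), a dehydrogenase of the demethylation steps, was in 2i/LIF at 71.9 and 71.7 CPM at 0 h, 109 and 113 at 12 h, 129.5 and 131 at 24 h and 111 and 113 at 40 h. Nsdhl in the serum medium was at 44.7 and 49.5 CPM at 0 h, 91.2 and 86.2 at 12 h, 89.5 and 87.9 at 24 h and 93.9 and 99.6 at 40 h. It rose by 0.64 ± 0.06 and 1.04 ± 0.07 over 40 h, and in 2i/LIF it fell by 0.22 ± 0.06 after 24 h.

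Of the remaining enzymes, Cyp51, the lanosterol demethylase, ranged from 96.4 to 268 CPM and rose by 0.38 ± 0.05 in 2i/LIF and 1.20 ± 0.05 in the serum medium. Msmo1, an oxidase of the demethylation steps, ranged from 138 to 366 CPM and rose by 0.76 ± 0.04 and 1.11 ± 0.04. Sc5d, the desaturase after Ebp, ranged from 30.1 to 62.9 CPM and rose by 0.62 ± 0.09 and 0.90 ± 0.09. Tm7sf2 and Lbr are both sterol C14 reductases, and Lbr is also a protein of the nuclear envelope. Lbr ranged from 225 to 409 CPM and rose by 0.40 ± 0.04 and 0.68 ± 0.04. Tm7sf2 ranged from 16.4 to 44.7 CPM, fell by 0.44 ± 0.11 in 2i/LIF and was higher by 0.29 ± 0.12 in the serum medium (adjusted p = 0.0243, edgeR). That rise was lost without serum-medium replicate 1 at 0 h (0.11) or replicate 1 at 40 h (0.26) and under DESeq2 (0.32, adjusted p = 0.0746), and without replicate 2 at 0 h it was 0.50.

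The regulators did not move as a block. Srebf2, which encodes SREBP2, the main activator of the synthesis genes, rose in both media, and so did Insig1. Srebf1, which encodes SREBP1, the activator of fatty acid synthesis genes, passed the test at 40 h as a fall in 2i/LIF but not in the serum medium. Insig1 (Entrez 231070) in 2i/LIF was at 229.9 and 219 CPM at 0 h, 214 and 222 at 12 h, 262 and 258 at 24 h and 299 and 285 at 40 h. Insig1 in the serum medium was at 122 and 132 CPM at 0 h, 162 and 168 at 12 h, 199 and 206 at 24 h and 234 and 232 at 40 h. In 2i/LIF the 0 and 12 h libraries overlapped and the later ones lay above them, whereas in the serum medium each time lay wholly above the one before. Insig1 rose by 0.38 ± 0.04 and 0.88 ± 0.05 over 40 h, with edgeR adjusted p of 1.52e-13 and 7.64e-36.

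Srebf2 (Entrez 20788) in 2i/LIF was at 359.7 and 376 CPM at 0 h, 426 and 449 at 12 h, 436 and 428 at 24 h and 512 and 511 at 40 h. Srebf2 in the serum medium was at 302 and 310.3 CPM at 0 h, 396 and 397 at 12 h, 418 and 415 at 24 h and 506 and 483 at 40 h. Every later library lay above both 0 h libraries of its medium, and the rise over 40 h was 0.47 ± 0.04 and 0.69 ± 0.04. Srebf1 (Entrez 20787) in 2i/LIF was at 152 and 149 CPM at 0 h, 119 and 122 at 12 h, 108 and 111 at 24 h and 97.7 and 101 at 40 h. Srebf1 in the serum medium was at 89.04 and 97.5 CPM at 0 h, 120.0 and 118 at 12 h, 94.2 and 92.9 at 24 h and 95.9 and 101 at 40 h. The 2i/LIF libraries started at the top and fell by 0.60 ± 0.06 over 40 h (adjusted p = 5.01e-18, edgeR). Those of the serum medium were higher at 12 h by 0.35 ± 0.06 and did not differ from 0 h at 40 h beyond the spread (0.08 ± 0.06, adjusted p = 0.232). At 40 h the Srebf1 values of the media overlapped. The table counts both SREBP1 isoforms as 1 gene, so they cannot be told apart here.

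Scap (Entrez 235623), the escort of the SREBPs, was in 2i/LIF at 49.98 and 54.1 CPM at 0 h, 39.7 and 38.5 at 12 h, 43.04 and 48.2 at 24 h and 59.5 and 58.8 at 40 h. Scap in the serum medium was at 44.2 and 43.2 CPM at 0 h, 37.6 and 36.6 at 12 h, 44.02 and 42.5 at 24 h and 67.3 and 64.8 at 40 h. It was lowest at 12 h and highest at 40 h in both media. Another gene covers 18.57% of the exon bases of Scap on the opposite strand, so its counts are uncertain. Against 0 h, Scap was at -0.41 ± 0.09 at 12 h in 2i/LIF and at -0.24 ± 0.09 in the serum medium, and it rose by 0.60 ± 0.08 over 40 h in the serum medium. The 40 h difference in 2i/LIF was 0.18 ± 0.08, and this call was lost under DESeq2 (adjusted p = 0.0881) and on leaving out each of 3 libraries, namely replicate 1 at 0 h (0.13) and replicates 1 and 2 at 40 h (0.17 and 0.19) of 2i/LIF. The 12 h call in the serum medium was lost on leaving out each of the 4 libraries compared (-0.25 to -0.22) and under DESeq2 (adjusted p = 0.0931). Insig2 ranged from 16.4 to 24.8 CPM and was lower at 40 h in 2i/LIF (-0.31 ± 0.13). That call was lost under DESeq2 (adjusted p = 0.115) and without replicate 1 or 2 at 0 h or replicate 2 at 40 h (-0.31, -0.32 and -0.25). In the serum medium Insig2 was at -0.14 ± 0.12 and did not pass the test.

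The uptake limiter Mylip and the export gene Abca1 were lower at 40 h than at 0 h in both media. Mylip, also known as IDOL, encodes an E3 ubiquitin ligase that marks lipoprotein receptors for breakdown. Mylip (Entrez 218203) in 2i/LIF was at 20.9 and 18.1 CPM at 0 h, 10.00 and 12.6 at 12 h, 10.6 and 7.90 at 24 h and 7.14 and 5.16 at 40 h. Mylip in the serum medium was at 14.5 and 16.01 CPM at 0 h, 7.30 and 7.66 at 12 h, 6.86 and 5.71 at 24 h and 5.08 and 6.39 at 40 h. Every later library was below both 0 h libraries in each medium. Mylip fell by 1.65 ± 0.18 in 2i/LIF (adjusted p = 1.44e-14) and by 1.42 ± 0.18 in the serum medium (adjusted p = 2.46e-12), by edgeR's test. At 12 h the log2 fold change was already -0.78 ± 0.16 and -1.02 ± 0.18.

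Abca1 encodes the transporter that passes cholesterol out to apolipoproteins. Abca1 (Entrez 11303) in 2i/LIF was at 24.1 and 23.4 CPM at 0 h, 14.8 and 14.8 at 12 h, 19.2 and 19.3 at 24 h and 7.51 and 7.34 at 40 h. Abca1 in the serum medium was at 19.2 and 17.9 CPM at 0 h, 10.9 and 12.03 at 12 h, 26.99 and 29.6 at 24 h and 10.8 and 9.97 at 40 h. In the serum medium it moved down, up and down again, and in 2i/LIF the step up from 12 to 24 h (0.38 ± 0.14) lost its call under DESeq2 (adjusted p = 0.12) and on leaving out each of the 4 libraries compared. At 12 h it was lower (-0.68 ± 0.14 and -0.69 ± 0.14), at 24 h the serum-medium libraries stood above all others of that medium (0.61 ± 0.12 against 0 h), and at 40 h both media were at their lowest. Abca1 fell by 1.67 ± 0.16 over 40 h in 2i/LIF and by 0.84 ± 0.14 in the serum medium, with edgeR adjusted p of 2.43e-18 and 5.53e-08. The step from 24 to 40 h was -1.37 ± 0.16 and -1.44 ± 0.12. The 24 h value in 2i/LIF (-0.30 ± 0.13) lost its call under DESeq2 (adjusted p = 0.134) and on leaving out each of the 4 libraries compared (-0.33 to -0.29).

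Stard4, a carrier that moves cholesterol between membranes, went with the enzymes. Stard4 (Entrez 170459) in 2i/LIF was at 69.97 and 75.5 CPM at 0 h, 87.7 and 93.6 at 12 h, 109.7 and 110.0 at 24 h and 131 and 118 at 40 h. Stard4 in the serum medium was at 45.1 and 46.9 CPM at 0 h, 64.7 and 63.6 at 12 h, 83.4 and 80.2 at 24 h and 96.95 and 92.03 at 40 h. Each time lay wholly above the one before in both media, and at each time the 2i/LIF libraries lay above those of the serum medium. It rose by 0.77 ± 0.06 and 1.04 ± 0.07 over 40 h, with edgeR adjusted p of 2.09e-21 and 3.29e-28. Its step from 24 to 40 h lost its call without replicate 1 at 40 h in each medium. The value then went from 0.18 to 0.11 in 2i/LIF and from 0.21 to 0.16 in the serum medium.

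**Figure D3:**
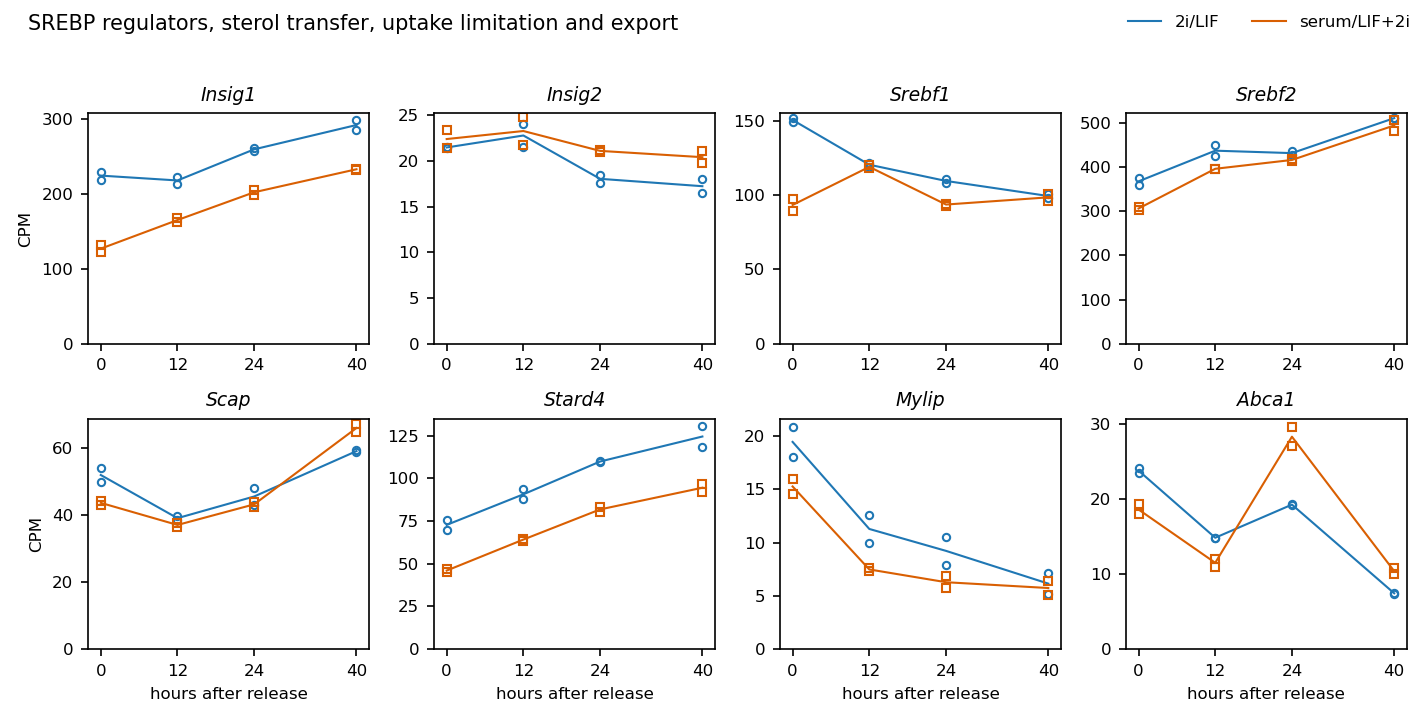
CPM of the regulators Insig1, Insig2, Srebf1, Srebf2 and Scap and of Stard4, Mylip and Abca1 against hours after release, with every vertical axis starting at 0. Points are single libraries and lines join group means. Stard4 climbs throughout, Mylip falls, Scap dips at 12 h, and Abca1 in the serum medium stands at 27.0 and 29.6 CPM at 24 h between lower values at 12 and 40 h.

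Neighbouring times show where the members moved. From 12 to 24 h, 13 members were higher and 3 lower in 2i/LIF (background 17.4% and 17.7%, 35.1% in all), and 14 were higher and 3 lower in the serum medium (background 24.2% and 24.2%, 48.4% in all). From 24 to 40 h, 13 were higher and 8 lower in 2i/LIF (background 22.2% and 24.5%, 46.7% in all), and 16 were higher and 2 lower in the serum medium (background 25.9% and 24.6%, 50.5% in all). The 8 that fell late in 2i/LIF were Idi1, Fdft1, Cyp51, Nsdhl, Ebp, Srebf1, Mylip and Abca1. Under DESeq2 the late split in 2i/LIF was 13 higher and 5 lower, since the falls of Cyp51, Srebf1 and Mylip (-0.09, -0.12 and -0.57) lost their calls. The edgeR values of these 3 were -0.11 ± 0.04, -0.14 ± 0.06 and -0.58 ± 0.21, and that of Mylip was -0.36 without replicate 1 at 24 h and -0.38 without replicate 2 at 40 h, with no call in either. The split was 13 higher and 5 lower without each of those 2 libraries too. Hmgcs1 in the serum medium rose mostly before 12 h (0.80 ± 0.04) and after 24 h (0.42 ± 0.03), with -0.06 ± 0.04 between.

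The media were compared at each time to describe how the maintenance medium goes with the level of the pathway. Serum cannot be told apart here from the other differences between the media. After release it cannot be told apart from the differing base media either. At 0 h, 21 members were lower and 0 higher in the serum medium than in 2i/LIF, against 18.4% and 14.6% of tested genes (33% in all). The enzyme median was -0.42, against -0.01 over all tested genes. Of the enzymes, 15 were lower. Ebp differed most (-1.06 ± 0.08, edgeR adjusted p = 5.78e-23), followed by Tm7sf2 (-0.98 ± 0.12), Dhcr7 (-0.94 ± 0.06) and Cyp51 (-0.92 ± 0.05). Among the other members, Insig1 was lower (-0.82 ± 0.05), as were Srebf1 (-0.69 ± 0.06) and Stard4 (-0.66 ± 0.08). For each of these 7 the 2 libraries of one medium lay wholly apart from those of the other at 0 h. The same held for 25 members in all, more than the 21 called, and 3 members overlapped. No such share is given for all tested genes, so this separation does not set the 7 apart. Of the 6 enzymes of the mevalonate steps, 2 were called (Mvk and Fdps), and Pmvk, Mvd, Idi1 and Ggps1 were not. The calls of Mvk, Scap and Abca1 were lost under DESeq2 (adjusted p of 0.0584, 0.0799 and 0.129) and without single libraries. Mvk was at -0.23 without replicate 1 of 2i/LIF and -0.27 without replicate 1 of the serum medium, Scap at -0.27 to -0.20 on leaving out each of 3 of the 4 libraries (all but replicate 1 of 2i/LIF), and Abca1 at -0.40 to -0.31 on leaving out each of the 4.

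Fewer members differed between the media at later times. At 12 h, 15 members were lower and 0 higher in the serum medium, against 15.5% and 14.8% of tested genes, 30.3% in all. At 24 h, 18 were lower and 1 higher, against 17% and 14.1%, 31.1% in all. At 40 h, 13 were lower and 1 higher, against 13.4% and 13.9%, 27.3% in all, and the enzyme median was -0.18. The exception at both times was Abca1, at 0.56 ± 0.12 and 0.48 ± 0.17. Of the members, Ebp again had the largest value at 40 h, at -0.71 ± 0.13 (edgeR adjusted p = 4.02e-06), and Insig1 and Stard4 were lower too (-0.33 ± 0.04 and -0.40 ± 0.06). Cyp51 went from -0.92 ± 0.05 at 0 h to -0.10 ± 0.04 at 40 h, where it was not called, and Dhcr7 from -0.94 ± 0.06 to -0.18 ± 0.05. At 24 h the calls of Lss, Cyp51, Lbr, Idi1 and Mylip (the last at 12 h too), and at 40 h those of Mvd, Lss, Lbr and Abca1, were lost under DESeq2 and without 1 to 3 single libraries. Of these, the values that moved most were Mylip at 24 h, -0.57 and -0.34 without 2i/LIF replicate 1 at 24 h, and Idi1 at 24 h, -0.39 and -0.23 without serum-medium replicate 2 at 24 h.

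**Figure D4:**
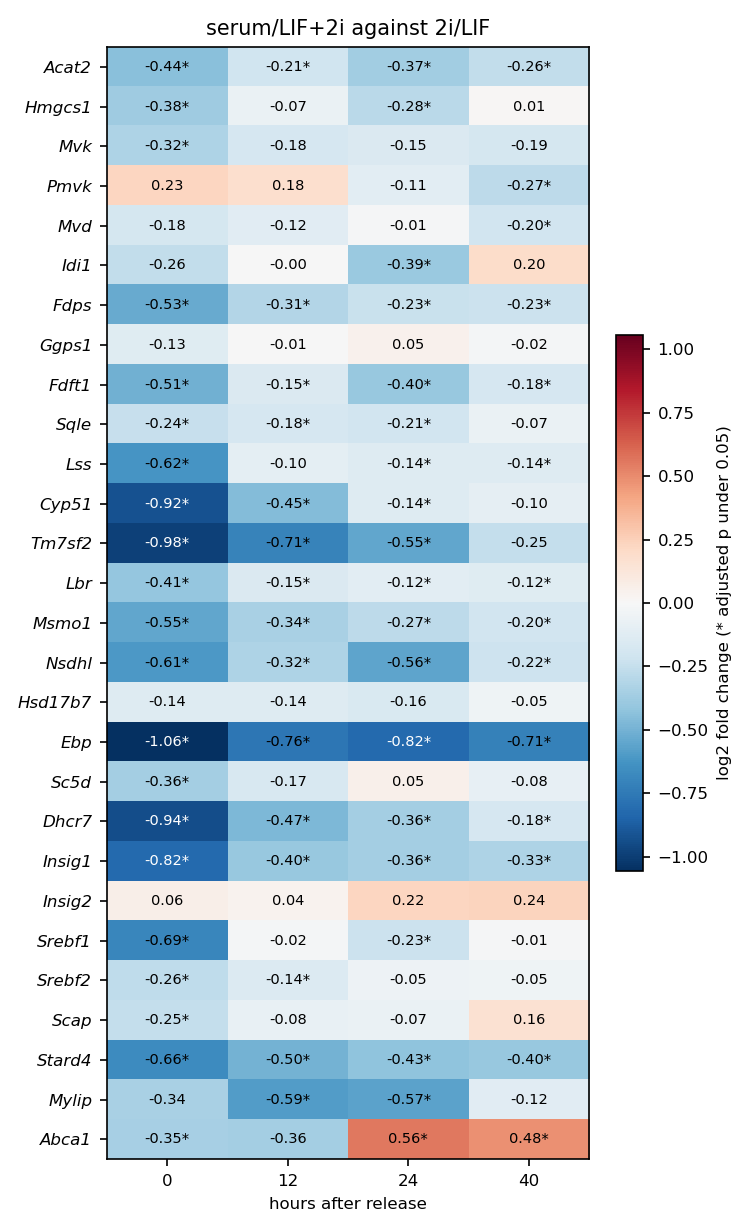
Log2 fold change of the serum medium against 2i/LIF for the 28 members (rows, in order of role) at 0, 12, 24 and 40 h (columns). Blue is lower and red higher in the serum medium, on a scale symmetric about 0, and asterisks mark an adjusted p under 0.05. The 0 h column holds 21 asterisks, all lower, and Abca1 turns from lower at 0 h (-0.35) to higher at 24 and 40 h (0.56 and 0.48).

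The change over exit was then compared between the media by an interaction term, which equals the medium difference at the later time minus that at 0 h and so uses the same 0 h libraries as both. In this term too, the maintenance medium cannot be told apart from the base medium given after release. At 12 h, 11 members had a more positive change from the serum medium and 0 a more negative one, against 4.8% and 4.4% of tested genes, 9.2% in all. At 24 h the counts were 11 and 1 (background 9.77% and 11%, 20.8% in all), and at 40 h 17 and 1 (background 14.8% and 12.8%, 27.6% in all). At 40 h 11 of 20 enzymes were more positive, with an enzyme median of 0.31 against 0.02 for all tested genes. The largest enzyme values were Cyp51 at 0.82 ± 0.07 (edgeR adjusted p = 3.29e-20), Dhcr7 at 0.76 ± 0.08, Tm7sf2 at 0.73 ± 0.16 and Lss at 0.48 ± 0.08. Pmvk was the one member with a more negative change, at -0.50 ± 0.12. Ebp, Mylip and Insig2 were not called (0.35 ± 0.15, 0.23 ± 0.26 and 0.18 ± 0.18), which does not show that their changes were alike.

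Other genes of the pathway were taken from 4 lists, and their counts at 40 h stand beside 68.8% of all tested genes called in 2i/LIF and 70.5% in the serum medium. Of 9 genes for SREBP cleavage and INSIG turnover, 2 rose and 4 fell over 40 h in 2i/LIF, and 2 rose and 3 fell in the serum medium, shares called that are no higher than in all tested genes, with medians of -0.03 and -0.04. Sec23a, a coat protein of the vesicles that leave the endoplasmic reticulum, fell by 1.06 ± 0.06 and 0.90 ± 0.05. Of 10 fatty acid genes linked to SREBP1, 3 rose and 5 fell in 2i/LIF, and 6 rose and 2 fell in the serum medium, with medians of -0.15 and 0.30. Acaca, which makes malonyl-CoA, rose by 0.95 ± 0.07 and 1.42 ± 0.07. Scd1, a fatty acid desaturase, fell by 0.29 ± 0.04 in 2i/LIF and rose by 0.70 ± 0.04 in the serum medium, and Me1, which makes NADPH, fell by 1.38 ± 0.11 and 0.90 ± 0.11. At 0 h, 9 of these 10 were lower and 1 higher in the serum medium, with a median of -0.45. The background there was 18.4% of tested genes lower and 14.6% higher. In the interaction at 40 h, 8 of the 10 were more positive and 1 more negative, against 14.8% and 12.8% of tested genes.

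Of 12 genes for LXR and sterol trafficking, 11 were tested and Gramd1c was not. In 2i/LIF 1 rose and 8 fell, and in the serum medium 2 rose and 7 fell, with medians of -0.75 and -0.49. Npc2, which carries cholesterol out of lysosomes, fell by 2.14 ± 0.04 and 1.74 ± 0.04, and Pltp, a phospholipid transfer protein, fell by 1.39 ± 0.08 and 1.10 ± 0.09. Of 12 other users of isoprenoids, 2 rose and 5 fell in 2i/LIF and 1 rose and 5 fell in the serum medium, again no larger a share than in all tested genes, with medians of -0.09 and -0.13. Fntb, the catalytic subunit of farnesyltransferase, fell by 0.99 ± 0.06 and 0.97 ± 0.05. Pdss1, which makes the side chain of coenzyme Q, fell by 0.96 ± 0.10 and 0.54 ± 0.10.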

How the data were processed

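The labels' protocols give TRIzol extraction and a stranded mRNA library kit. The authors deposited 1 table of raw counts per gene with Entrez identifier, symbol and gene length, per the file headers. The submitters' processing notes name fastp, STAR, featureCounts and mm10. Their versions, the annotation and the strand setting are not given in the sources used here. All 16 columns of values belong to a library, so 0 were set aside.

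Genes were filtered with filterByExpr by group (at least 10 counts, 15 in total), scaled by TMM and fitted in 1 model with a term per group (edgeR 4.0.16, R 4.3.3, robust quasi-likelihood F test, two-sided, 8 residual degrees of freedom, common biological coefficient of variation 3.19%). P-values were adjusted (Benjamini-Hochberg) over 14288 genes in each of 17 comparisons, and calls were made at an adjusted p under 0.05. Standard errors come from the F statistic. The level that 3 counts equal covers counting error only, since reads carry no molecular identifiers. Each library was counted as a replicate. Replicates differed by more than sampling noise (chi-square per degree of freedom of 1.316 to 4.442, over all genes with counts, scaled by library totals only). That value includes ribosomal RNA rows. It was largest in the serum medium at 24 h, where they held 1.72% and 0.746% of counts. It therefore does not show whether replicates were separate cultures. Ribosomal RNA rows held 0.429% to 1.72% of counts.

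Members and gene lists were chosen with earlier results of these data known. All members are named. Values in every library are given for up to 4 members per role with the widest range of group means, and for Stard4, Mylip and Abca1. Other lists name up to 3 genes by smallest adjusted p at 40 h. The values of 1 gene that this rule would name are not reported here. Overlaps and shared 50-base stretches come from GENCODE, and promoters from RefSeq, both for GRCm38. On simulated data for 14288 genes, in which 67, 67 and 66 genes changed 1.5-, 2- and 4-fold, the test recovered 68.7%, 80.6% and 93.9% of them in the 40 h comparison in 2i/LIF (10 unchanged genes called) and 61.2%, 79.1% and 87.9% in the interaction at 40 h (6 called). Far fewer genes changed there than were called in the data (68.8% at 40 h in 2i/LIF). These rates may therefore not hold for the tests reported here. Alternatives were DESeq2 1.42.0, its size factors, library size only, no filter, a mean of at least 5 CPM, a replicate block and leaving out each library, with, after seeing the data, leaving out ribosomal RNA rows.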

Additional observations from a re-analysis of the deposited data

Results flagged for a closer look

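A test of whether the change after release differed between media (serum medium minus 2i/LIF, edgeR's interaction term) picked out 41 results among the members, all on the log2 scale.

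At 12 h these were Acat2 (0.23), Hmgcs1 (0.30), Fdft1 (0.36), Lss (0.52), Cyp51 (0.46), Lbr (0.26), Msmo1 (0.20), Nsdhl (0.29), Dhcr7 (0.46), Insig1 (0.42) and Srebf1 (0.67). The Srebf1 groups moved in opposite directions, by -0.32 ± 0.06 in 2i/LIF and 0.35 ± 0.06 in the serum medium. The Acat2 call was lost on leaving out each of 11 single libraries in turn (0.13 without serum-medium replicate 1 at 0 h), that of Nsdhl with each of 9 and that of Msmo1 with each of 4 (0.12 without the same replicate). All 3 were lost under DESeq2 (adjusted p of 0.202, 0.181 and 0.125).

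At 24 h they were Pmvk (-0.34), Fdps (0.30), Lss (0.49), Cyp51 (0.78), Lbr (0.29), Msmo1 (0.27), Sc5d (0.41), Dhcr7 (0.58), Insig1 (0.46), Srebf1 (0.46), Srebf2 (0.21) and Abca1 (0.91). Abca1 was lower than at 0 h in 2i/LIF (-0.30 ± 0.13) and higher in the serum medium (0.61 ± 0.12). The calls of Pmvk (each of 10 libraries, -0.23 without 2i/LIF replicate 2 at 24 h), Fdps (each of 3, 0.23 to 0.24) and Sc5d (each of 2, 0.35 and 0.39) were lost on leaving out single libraries, and those of Pmvk and Sc5d also under DESeq2 (adjusted p of 0.176 and 0.0664).

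At 40 h they were Hmgcs1 (0.39), Pmvk (-0.50), Fdps (0.30), Fdft1 (0.33), Sqle (0.17), Lss (0.48), Cyp51 (0.82), Tm7sf2 (0.73), Lbr (0.28), Msmo1 (0.35), Nsdhl (0.39), Dhcr7 (0.76), Insig1 (0.50), Srebf1 (0.68), Srebf2 (0.22), Scap (0.41), Stard4 (0.27) and Abca1 (0.84). Tm7sf2 fell in 2i/LIF (-0.44 ± 0.11) and was higher in the serum medium (0.29 ± 0.12). The calls of Sqle (each of 5 libraries, 0.11 without 2i/LIF replicate 2 at 40 h), Stard4 (each of 4) and Fdps (each of 2, 0.22 and 0.24) were lost on leaving out single libraries, and those of Sqle and Stard4 also under DESeq2 (adjusted p of 0.0894 and 0.12). The 3 times share the 0 h libraries, in which 16 of 20 enzymes had their lowest mean in the serum medium.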

How the results depend on the processing

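Over the 17 comparisons, 330 of 476 member results were called, 272 of them whichever single library was left out and 58 not. In every alternative run, 0 called results changed sign. DESeq2 called 291 and lost 39, and the other settings called 330 (its size factors in edgeR), 330 (library size only), 324 (no filter), 335 (mean of at least 5 CPM) and 324 (without ribosomal RNA rows). Under library size only, the median log2 value of all tested genes reached 0.075 at most. Over all tested genes, DESeq2 called fewer than edgeR in the medium comparisons: 3115 against 4710 at 0 h, 2668 against 4334 at 12 h, 2729 against 4439 at 24 h and 2010 against 3897 at 40 h (2240 by edgeR without 2i/LIF replicate 1 at 40 h). In the interaction it called 574 against 1315 at 12 h, 1789 against 2966 at 24 h and 2419 against 3940 at 40 h. Leaving out 1 library moved the members called at 40 h from 26 to between 24 and 27 in 2i/LIF, from 26 to between 24 and 26 in the serum medium, from 14 to between 10 and 17 between the media and from 18 to between 15 and 19 in the interaction. Members near the lowest levels, such as Mylip, have the widest errors.

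With the replicate number as a block the test called 332 member results, losing 0, so it changed no call but the 2 it added. Replicate differences did not go together across groups (correlations of -0.023 to 0.033 over 28 pairs of groups), so the numbers are not taken to pair the libraries.

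Other shifts in the share of higher calls came from leaving out 1 library in 2i/LIF: 19 higher and 3 lower from 0 to 24 h without replicate 2 at 0 h, and, from 12 to 24 h, 11 and 1 without replicate 2 at 12 h and 13 and 1 without replicate 1 at 24 h.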
